A study of Homo sapiens with 6 samples.

Results

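The extracellular matrix genes ADAMTS2, ADAMTSL2, ADAMTSL4, SPOCK2 and FBN2 were followed in HepG2, a long-established line from a human hepatocellular carcinoma, with and without overexpression of the de novo DNA methyltransferase DNMT3A. The regions described are the rows of 3 deposited lists of differentially methylated regions that overlap the 5 genes on hg38, with no choice by direction. These were 14 of 4344 listed regions: 3 of 1483 in pair 1, 3 of 1433 in pair 2 and 8 of 1428 in pair 3. The 5 genes had been picked because regions were listed in them, so the levels, differences and counts of the 5 genes below are a description and carry no test.

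The assay was reduced representation bisulfite sequencing (RRBS), which enriches CpG-rich fragments by cutting DNA with MspI and reads methylated cytosines after bisulfite conversion. One group was infected with control lentivirus (genotype WT in the labels) and the other with a lentivirus that overexpresses DNMT3A. Each group had 3 libraries, and each list compares 1 overexpressing library with its same-numbered control, called a pair here. All libraries come from this 1 line in serum-containing medium, and the labels do not say whether the libraries of a group were separate cultures, or whether the infected cells were a pool or a clone. Mapped reads ranged from 25764323 to 29924507 per library. The lists give no reads per region, so levels are given without an interval because their depth is unknown. Expression was not analysed here, so neither the level of DNMT3A nor the hepatocyte markers of the line were checked.

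The products of these genes build and trim the fibrous matrix outside cells. ADAMTS2 is a secreted metalloproteinase that removes the amino-terminal propeptide of fibrillar procollagens so that fibrils can form. ADAMTSL2 and ADAMTSL4 resemble ADAMTS proteases but lack the catalytic domain, and both bind the fibrillin microfibrils around which elastic fibres are built. FBN2 encodes a fibrillin of developing tissue, and SPOCK2 encodes testican-2, a secreted calcium-binding proteoglycan of the SPARC family. DNA methylation at a CpG-rich start site is generally associated with a silent gene, whereas methylation inside a gene body is common in active genes.

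Sequence could be set beside the data where a listed region fell within the 250 bases before a gene's start in RefSeq (GRCh38.p14). Of the 5 genes, which all matched that table, this was the case in ADAMTS2 alone. The stretch is on the minus strand at chr5:179345462-179345711, and the region listed in pair 3, at chr5:179345603-179345669, is in capitals.

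ADAMTS2 before the start: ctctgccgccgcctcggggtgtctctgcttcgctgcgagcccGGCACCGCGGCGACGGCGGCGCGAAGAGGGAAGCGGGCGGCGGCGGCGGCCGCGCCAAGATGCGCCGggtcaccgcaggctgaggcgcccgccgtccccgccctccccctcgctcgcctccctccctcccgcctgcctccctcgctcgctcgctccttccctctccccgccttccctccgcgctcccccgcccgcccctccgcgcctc

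The same 67 bases follow with every CpG in capitals, to show how closely the measured sites are packed.

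ADAMTS2 listed region: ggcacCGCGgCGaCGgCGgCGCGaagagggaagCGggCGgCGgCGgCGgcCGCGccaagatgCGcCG

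This region runs from base 43 to base 109 of the stretch and holds 16 CpG dinucleotides. MspI cuts at CCGG, which reads the same on both strands, and the 2 matches in the stretch begin at bases 41 and 107, across either end of the region. The listed region thus fills the space between these matches. The list gives 33 CpG sites for it, which equals the count of cytosines in CpG context over both strands. Over the 113 listed regions that lay inside a RefSeq stretch of 250 bases before to 50 after a start, the listed number of sites was never above the count over both strands. It equalled that count in 71 regions (62.8%) and was above the number of dinucleotides in 109. The sites of the lists are thus counted on each strand, and a listed number of 28 sites stands for 28 cytosines over both strands, not for as many CpG dinucleotides.

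The start of SPOCK2 that lies nearest to its listed region looks different, and is shown for contrast with CpGs in capitals. It is on the minus strand at chr10:72088552-72088801.

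SPOCK2 before the nearer start: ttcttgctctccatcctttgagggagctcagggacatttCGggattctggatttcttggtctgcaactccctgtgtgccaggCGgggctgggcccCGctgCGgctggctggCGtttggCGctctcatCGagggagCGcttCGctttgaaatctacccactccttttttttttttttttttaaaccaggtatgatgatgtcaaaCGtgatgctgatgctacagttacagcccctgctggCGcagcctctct

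It holds 11 CpGs and no CCGG, and the stretch before the other SPOCK2 start holds 5 CpGs and no CCGG. Both are at or below the median of 11 CpGs over the 35116 stretches of this length in the table, of which 58.5% hold a CCGG. The other 4 genes were richer, with 40 CpGs before the start of ADAMTS2, 38 before ADAMTSL4 and 25 each before ADAMTSL2 and FBN2. They held 2, 8, 7 and 4 CCGG matches in the order ADAMTS2, ADAMTSL4, ADAMTSL2 and FBN2.

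Of the 14 listed regions, 11 were higher and 3 were lower in the overexpressing library, or 78.6% higher, against 81.6% of all 4344 listed regions. By pair, 2 of 3, 3 of 3 and 6 of 8 were higher, against 82.1%, 81.7% and 81.1% of the whole lists. The share of higher regions is near the background and says nothing particular about these genes. Without pair 3, which supplied 8 of the 14, 6 regions were left. Regions of different pairs that overlapped by at least 1 bp were joined, which gave 9 distinct regions. SPOCK2 had a region in all 3 pairs, ADAMTSL2, ADAMTSL4 and FBN2 had 1 each in 2 pairs, and the 5 regions of ADAMTS2 were each listed in 1 pair. All 4 regions listed more than once had a single direction, 3 higher and 1 lower. Of the 723 distinct regions listed in at least 2 pairs, 92% had a single direction. Most were gains, with 628 higher in each pair that listed them and 37 lower. A single direction is therefore usual for the gains, but the share is no like background for the FBN2 loss. Over all 3313 distinct regions, 20.1% were listed in several pairs with a single direction, 19% as higher and 1.12% as lower, and 7.97% were higher in all 3.

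**Figure D1:**
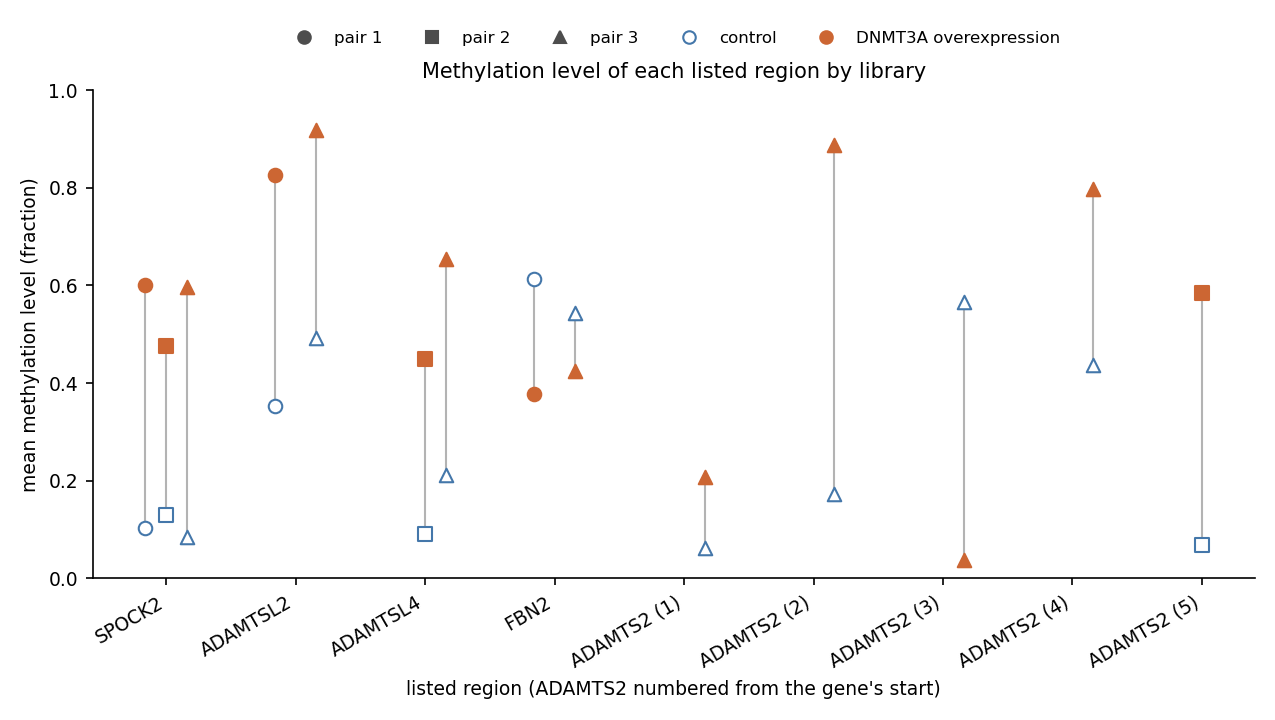
Mean methylation level (fraction, y axis) of the 9 distinct regions (x axis), with open symbols for control libraries, filled symbols for DNMT3A-overexpressing libraries, a shape for each pair and a line joining the libraries of a pair. SPOCK2 is the only region with 3 pairs, FBN2 and the third region of ADAMTS2 point downward, and the fifth ADAMTS2 region comes from pair 2 whereas the other 4 come from pair 3.

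SPOCK2 gained methylation in every pair, the only one of the 5 genes listed in all 3. Its region had the same boundaries in every pair, chromosome 10: 72086566-72086718, 153 bp with 28 CpG sites. In the control libraries 1, 2 and 3 the level was 0.103, 0.130 and 0.0851, and in the overexpressing libraries it was 0.601, 0.476 and 0.596. The lowest overexpressing library therefore stood far above the highest control, and overexpressing library 2 was the lowest of its group. The groups did not overlap at 96.3% of the 272 regions listed in all 3 pairs, so this separation is usual for such regions. The mean rose from 0.106 ± 0.0228 to 0.558 ± 0.0710 (SD, n = 3 per group), a difference of 0.451 ± 0.0921 (SD, n = 3 pairs).

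The SD of the SPOCK2 difference was larger than the median of 0.0324 over the regions listed in all 3 pairs, which reflects the smaller difference of pair 2 (0.345, against 0.498 and 0.511). Even so, the mean difference ranked 5 of the 272 when these were ordered by signed difference, from the largest gain down. The region lies inside the gene, 1833 bp downstream of the nearer of its 2 RefSeq starts, whose sequence is given above. Whether it is exonic or intronic was not analysed here.

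At SPOCK2 a large difference went with many CpG sites. The median size of the difference, in either direction, was 0.335, 0.350 and 0.331 in pairs 1, 2 and 3 for listed regions under 10 sites per 100 bp, and 0.172, 0.182 and 0.170 for those with at least 20. The SPOCK2 region held 18.3 sites per 100 bp, against a median of 10.98 over all listed regions. Among higher regions of the same list within 2 sites per 100 bp of it, a range chosen after the values were seen, the median difference was 0.210, 0.219 and 0.208 in pairs 1, 2 and 3. SPOCK2 ranked 3 of 112 in pair 1, 12 of 125 in pair 2 and 1 of 130 in pair 3. By the size of the authors' area score, whose construction the lists do not give, it ranked 18 of 1483, 51 of 1433 and 20 of 1428. Its control levels were below the medians of those density-matched regions, which were 0.215, 0.227 and 0.222.

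**Figure D2:**
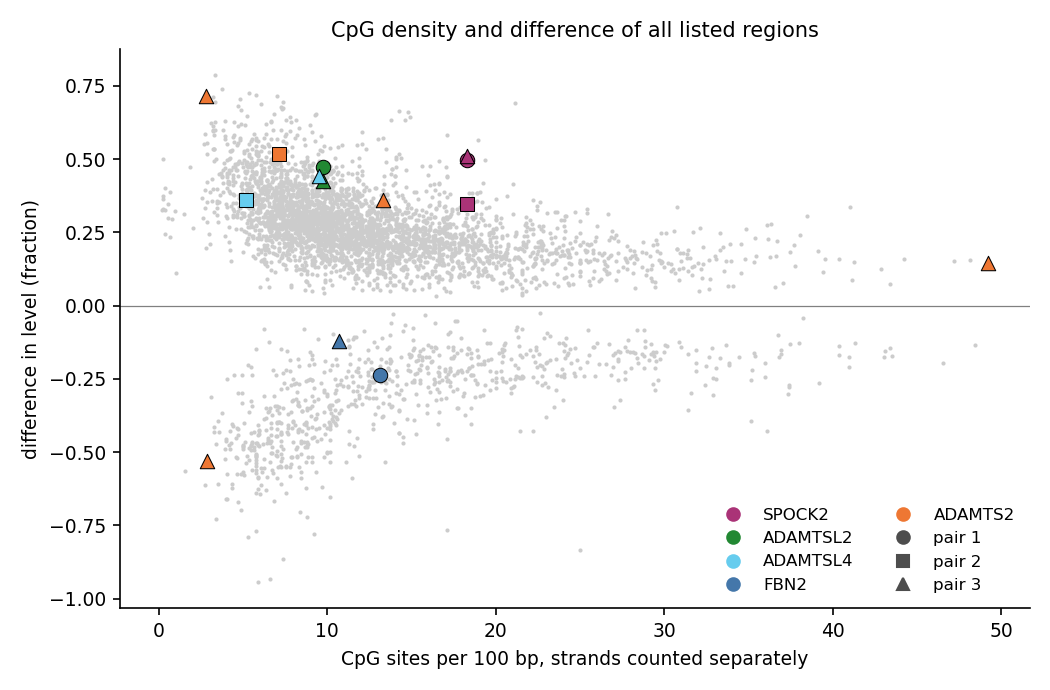
Difference in level between the overexpressing and the control library (fraction, y axis) against CpG sites per 100 bp with the strands counted separately (x axis) for all 4344 listed regions (grey) and the 14 regions of the matrix genes (coloured by gene, shaped by pair). SPOCK2 at 18.3 sites per 100 bp lies above most regions of its density, while ADAMTS2 has the densest region of all, at 49.3, and 2 regions under 3.

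The regions whose 6 levels were nearest to those of SPOCK2, by root mean square difference over the 6 libraries, came from other chromosomes. They were chromosome 11: 29305127-29305219 with no gene within 1 kb (0.0392), chromosome 16: 85536774-85536991 in GSE1 (0.0400) and chromosome 8: 6920795-6921188 with no gene within 1 kb (0.0436). A region listed once lay just outside the window used for SPOCK2, at chromosome 10: 72056991-72057105, 1929 bp beyond the end of the gene. There the control level was 0.0411 and the overexpressing level 0.250.

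Both ADAMTS-like genes gained methylation inside the gene. In ADAMTSL2 the region at chromosome 9: 133558985-133559066 (82 bp, 8 CpG sites) had identical boundaries in pairs 1 and 3. Control libraries 1 and 3 stood at 0.354 and 0.492, and overexpressing libraries 1 and 3 at 0.827 and 0.919. This was the highest end level among the regions listed more than once, and library 3 was the higher one in both groups. The means were 0.423 ± 0.0982 and 0.873 ± 0.0653, and the difference was 0.450 ± 0.0329 (SD, n = 2 pairs). Pair 2 lists nothing there, so its level is unknown. The region lies 24281 bp downstream of the gene's start in the table of starts, at base 133534704. The gene extent begins further upstream, at base 133532164. Among higher regions of similar density the difference ranked 17 of 412 in pair 1 and 32 of 385 in pair 3.

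In ADAMTSL4 the regions of pairs 2 and 3 began at the same base and ended at different ones, chromosome 1: 150550727-150550939 with 11 CpG sites in pair 2 and 150550727-150550831 with 10 in pair 3. Control libraries 2 and 3 stood at 0.0906 and 0.212, and overexpressing libraries 2 and 3 at 0.450 and 0.653. Library 3 was again higher in both groups. The groups did not overlap in these libraries, nor did they at 90.9% of the 723 regions listed in at least 2 pairs. Pair 1 lists nothing at ADAMTSL4, so its level is unknown. The means were 0.151 ± 0.0855 and 0.552 ± 0.144, and the difference was 0.401 ± 0.0580 (SD, n = 2 pairs). Among higher regions of similar density the difference ranked 113 of 200 in pair 2 and 34 of 397 in pair 3. In pair 2 it was below the median of those regions (0.360 against 0.379), and in pair 3 above it (0.442 against 0.287). The longer region of pair 2 spans 213 bp, of which 105 bp are common to both pairs. The lists do not say which sites were counted, so the number of shared sites is unknown.

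The ADAMTSL4 region lies 1319 bp downstream of that gene's start, and other transcripts share the position. It falls inside the antisense noncoding gene ADAMTSL4-AS2 and inside the protein-coding model LOC124904417, and begins 437 bp downstream of the start of the latter. It was therefore nearer to the start of LOC124904417 than to that of ADAMTSL4. Methylation of this stretch cannot be assigned to 1 of these 3 genes.

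FBN2 went the other way, and at its start. Pair 1 lists chromosome 5: 128537882-128537995 (15 CpG sites), from 0.613 in control library 1 to 0.377 in overexpressing library 1. Pair 3 lists chromosome 5: 128537726-128537921 (21 sites), from 0.544 in control library 3 to 0.424 in overexpressing library 3. Both overexpressing values lay below both controls. The means were 0.579 ± 0.0483 and 0.401 ± 0.0334, and the level fell by 0.178 ± 0.0817 (SD, n = 2 pairs). Pair 2 lists nothing at FBN2, so its level is unknown. The share of regions without overlap given for ADAMTSL4 is no like background for this loss. It rests mostly on gains, with 628 regions higher and 37 lower in each pair that listed them. It also counts regions of opposite directions, which cannot be free of overlap.

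The FBN2 loss was small for a listed loss. The difference ranked 172 of 266 lower regions in pair 1 and 256 of 270 in pair 3, whose median differences were -0.277 and -0.267. The regions of the pairs shared only 40 bp, chromosome 5: 128537882-128537921, so the listed levels of the pairs are over largely different stretches. When the overlap had to reach 0.5 of the shorter region, FBN2 no longer counted as listed in 2 pairs.

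Both FBN2 regions lie just inside the gene, 250 bp (pair 1) and 324 bp (pair 3) downstream of the only start in the table. The stretch before that start, on the minus strand at chr5:128538246-128538495, is shown with CpGs in capitals because the listed losses lie on its other side.

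FBN2 before the start: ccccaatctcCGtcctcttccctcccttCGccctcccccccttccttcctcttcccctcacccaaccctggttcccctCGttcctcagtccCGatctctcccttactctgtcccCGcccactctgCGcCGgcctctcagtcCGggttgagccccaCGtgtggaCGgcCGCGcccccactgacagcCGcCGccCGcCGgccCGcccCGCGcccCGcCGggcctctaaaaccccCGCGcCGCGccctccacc

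Across the lists, 22.9%, 23.3% and 24.1% of lower regions of pairs 1, 2 and 3 lay within 500 bp of a RefSeq start, against 10.2%, 11.5% and 11.8% of higher regions, a distance chosen after the values were seen. The FBN2 regions are among these losses near a start, and no region was listed in the remaining length of its 280337 bp. That shows only that none was called there, since sites covered by reads but not called are not listed.

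ADAMTS2 was the gene with the most listed regions and the least repetition. The gene spans 234609 bp, with 3 of its 5 regions inside it and 2 outside, 38 and 142 bp beyond its ends. Of the 5, 4 were higher and 1 was lower, and each was listed in a single pair, pair 3 for 4 of them. Among the 1773 protein-coding genes with a listed region within 1 kb, 7.22% had both directions. These genes had a median of 1 listed region, and a gene with 1 region cannot have both. The share is therefore not a like background for a gene with 5 regions. Of 1399 protein-coding genes of at least 200 kb, 21 (1.50%) had 5 or more listed regions. Nothing is read from this number, since the gene was chosen with its regions known.

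At the start of ADAMTS2, 142 to 208 bp upstream, the level was 0.0619 for control library 3 and 0.207 for overexpressing library 3. This is the sequence printed at the opening, and with 49.3 sites per 100 bp it was the densest of all 4344 listed regions. Its difference of 0.145 ranked 1050 of 1158 higher regions of pair 3, but its area score ranked 161 of 1428. The level was low in both libraries.

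Away from the start, the ADAMTS2 values of pair 3 swung widely at few sites. At chromosome 5: 179209670-179209918 (7 sites in 249 bp) control library 3 stood at 0.172 and overexpressing library 3 at 0.888, a difference of 0.716 that ranked 2 of 1158 higher regions. At chromosome 5: 179171286-179171494 (6 sites in 209 bp) the levels were 0.566 and 0.0369, a difference of -0.529 that ranked 21 of 270 lower regions. These regions, both inside the gene, thus moved in opposite directions in the same pair. They are not adjacent, lying 135543 and 173967 bp downstream of the gene's start. They held 2.81 and 2.87 sites per 100 bp, and only 0.806% of all listed regions held 3 or fewer.

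The remaining ADAMTS2 regions were at the far end of the gene. At chromosome 5: 179138416-179138520 (14 sites), inside the gene, the level of pair 3 went from 0.437 to 0.799. At chromosome 5: 179110746-179110815 (5 sites), 38 bp beyond the last base of the gene, that of pair 2 went from 0.0686 to 0.585. This was the only ADAMTS2 region of pair 2, and pair 1 listed none. With a minimum of 8 sites per region, 2 of the 5 ADAMTS2 regions were left.

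**Figure D3:**
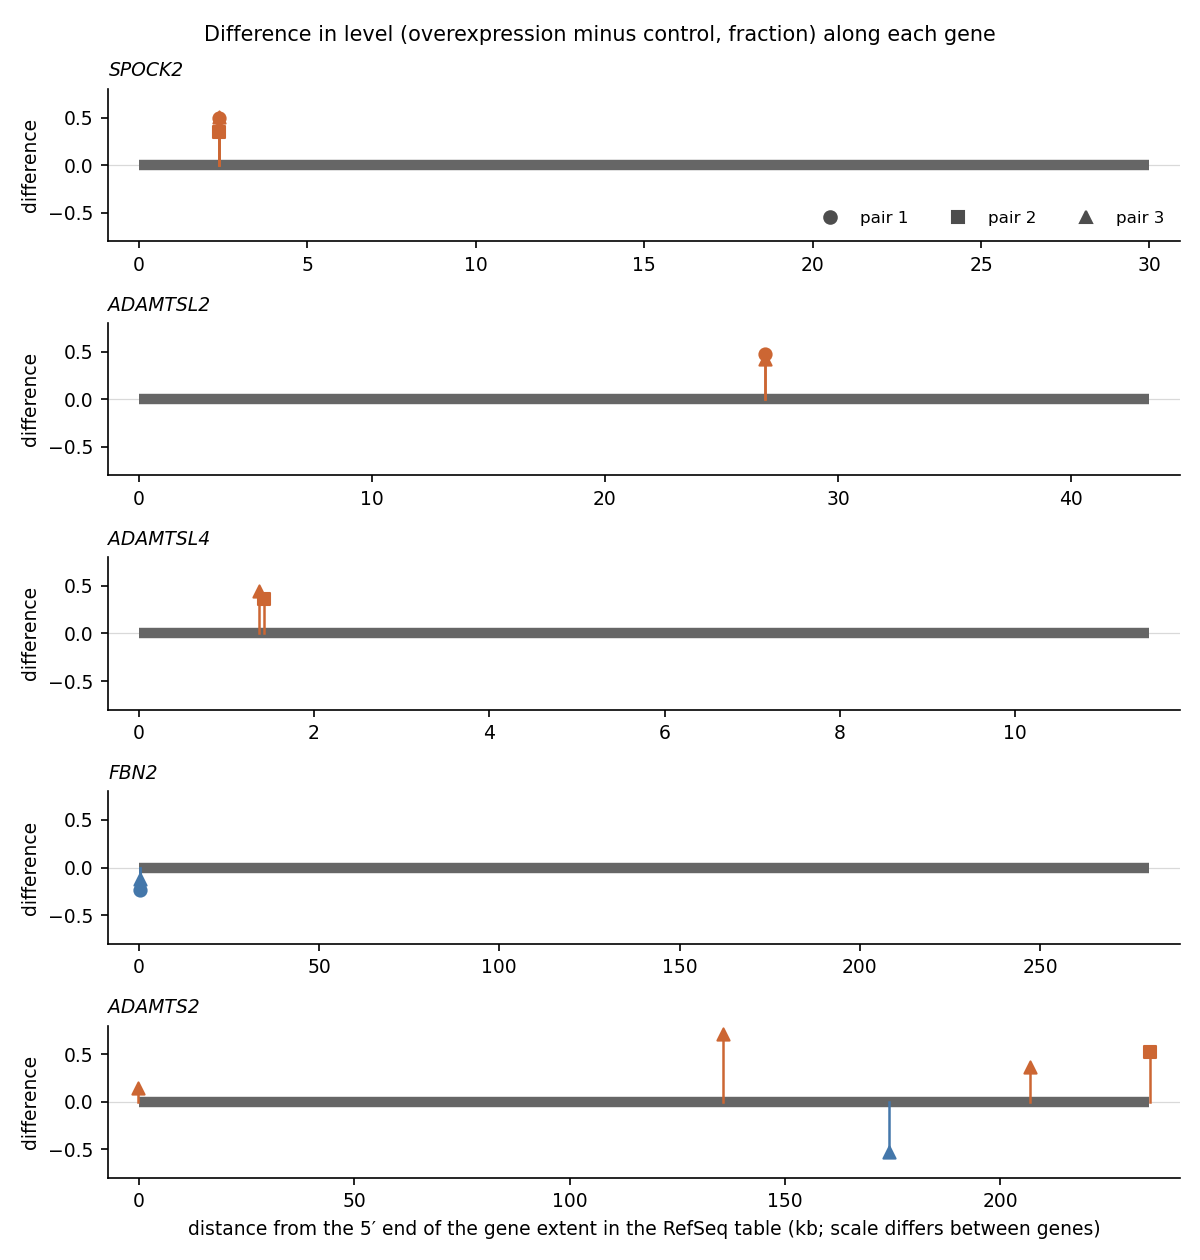
Difference in level (overexpression minus control, fraction, y axis) of each listed region at its distance from the 5′ end of the gene (kb, x axis, scaled to each gene), with shapes for the pairs, upward stems for gains, downward stems for losses and the grey bar for the gene. FBN2 losses sit at the 5′ end, SPOCK2 and ADAMTSL4 gains within the first 3 kb, and the ADAMTS2 regions are spread over the gene and its flanks.

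**Figure D4:**
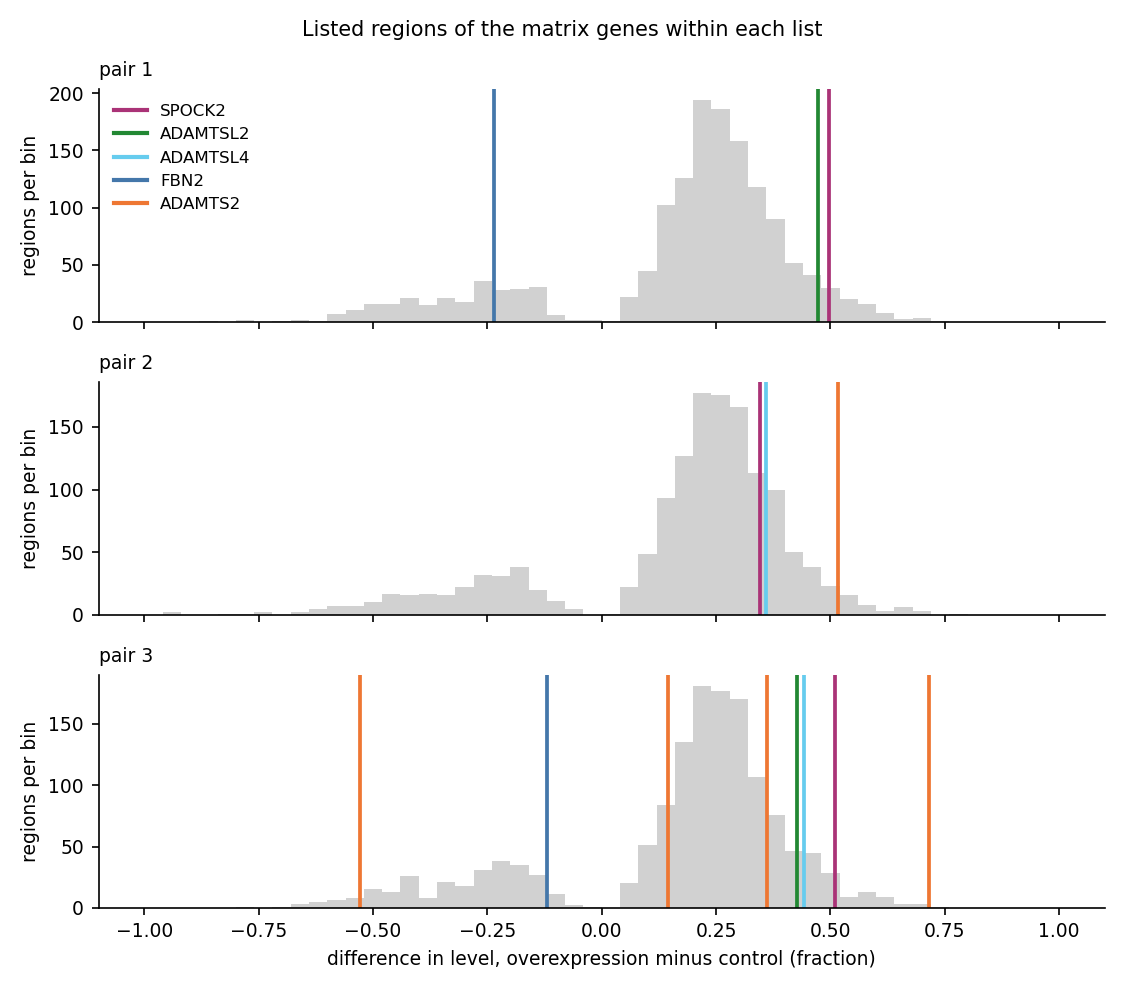
Number of listed regions (y axis, bins of 0.04) by difference in level (overexpression minus control, fraction, x axis) in each pair, with coloured lines at the regions of the matrix genes. The lines of SPOCK2, ADAMTSL2 and ADAMTSL4 lie to the right of the peak of the gains in each pair that lists them, and the FBN2 lines lie among the losses.

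Over the 11 higher regions of the 5 genes the median level was 0.130 in the controls and 0.601 in the overexpressing libraries, with a median difference of 0.442. Over all 3546 higher regions the medians were 0.195, 0.512 and 0.265. Because the genes were chosen from such results, their larger difference is no evidence of a property of matrix genes. CpG density ranged from 2.81 to 49.3 sites per 100 bp, and 6 of the 14 regions were above the median of all regions, so density was not a shared feature. Position was not shared either, since the distances to the gene's own start ran from 142 bp upstream in ADAMTS2 to 234646 bp downstream in the same gene.

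Other matrix genes were counted from 6 lists chosen by function, 82 genes in all and none of them among the 5 above. Of these, 18 had a listed region within 1 kb: 12 were higher only, 5 lower only and 1 had both. That is 22.0% of the 82 genes, against 8.85% of 20033 protein-coding genes. Gene length and CpG content were not matched, and no enrichment was tested. Of their 21 regions, 15 (71.4%) were higher, with a median difference of 0.226, against 81.6% higher and a median of 0.236 over all listed regions.

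ADAMTS12 was the only one of these 82 genes listed in several pairs at overlapping positions in a single direction. Of 18 other proteases, ADAMTS12, ADAMTS13 and ADAMTS19 had higher regions and ADAMTS17 a lower one, and 14 had none. ADAMTS12, a protease reported to act on cartilage matrix, was listed in pairs 1 and 3 at overlapping positions 148 bp upstream of its start. The region of pair 1, at chr5:33892138-33892193 on the minus strand, is printed with CpGs in capitals beside that of ADAMTS2, which has nearly the same distance from its start.

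ADAMTS12 listed region: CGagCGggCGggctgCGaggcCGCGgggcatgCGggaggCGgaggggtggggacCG

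Its level was 0.601 in control library 1 and 0.867 in overexpressing library 1, and 0.364 in control library 3 and 0.587 in overexpressing library 3. The difference was positive in both pairs (0.265 and 0.222), but overexpressing library 3 stood below control library 1, so the groups overlapped. Of all protein-coding genes, 2.15% repeated a region with a single direction in 2 or more pairs, against 1 of these 82 (1.22%). The controls were far more methylated here than at the ADAMTS2 start (0.0619 in control library 3).

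In the other lists EMILIN1 and TIMP2 were each listed in 2 pairs, and the remaining genes with a region had 1 each. With ADAMTS12, 3 of the 82 genes were listed in at least 2 pairs at any position, against 591 of 20033 protein-coding genes. Among 5 ADAMTS-like and papilin genes, ADAMTSL5 was higher (0.0538 to 0.292, pair 2) and ADAMTSL3 lower (0.267 to 0.0453, pair 2, 398 bp outside the gene). Of 7 SPARC family genes, FSTL1 alone had a region, which was lower (0.367 to 0.233, pair 2) and shared with LOC124900546. Of 23 microfibril and elastic fibre genes 4 were higher only: LTBP2, a latent TGF-beta binding protein (0.210 to 0.555, pair 2), FBLN1 (0.00710 to 0.162, pair 3), EMILIN3 (0.186 to 0.274, pair 3) and LOXL2, a lysyl oxidase that cross-links collagen and elastin (0.0801 to 0.625 over 4 sites, pair 1).

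EMILIN1, an elastic fibre glycoprotein, was listed in both directions at overlapping positions. Pair 1 went from 0.360 in the control to 0.211, and pair 2 from 0.0903 in the control to 0.206. The region of pair 1 has 20 sites and lies within that of pair 2, which has 37, so the levels of the pairs are not over the same sites. The position is also within 1 kb of KHK.

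Of 16 genes of fibrillar collagens and their processing, 2 were higher and 2 lower, each in 1 pair. The collagen gene COL5A2 went from 0.677 to 0.257 (pair 2) and COL5A1 from 0.477 to 0.187 (pair 3, 537 bp outside the gene). COL27A1 went from 0.158 to 0.384 (pair 1) and TLL2, a metalloproteinase of the tolloid family, from 0.228 to 0.488 (pair 2). Of 13 TGF-beta ligands, proteoglycans, metalloproteinases and inhibitors, TGFB2 was higher in pair 3 (0.422 to 0.749). That position is also within 1 kb of TGFB2-AS1. TIMP2 was higher in pairs 1 (0.278 to 0.545 over 4 sites) and 2 (0.371 to 0.599 over 14 sites), at positions that did not overlap.

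**Figure D5:**
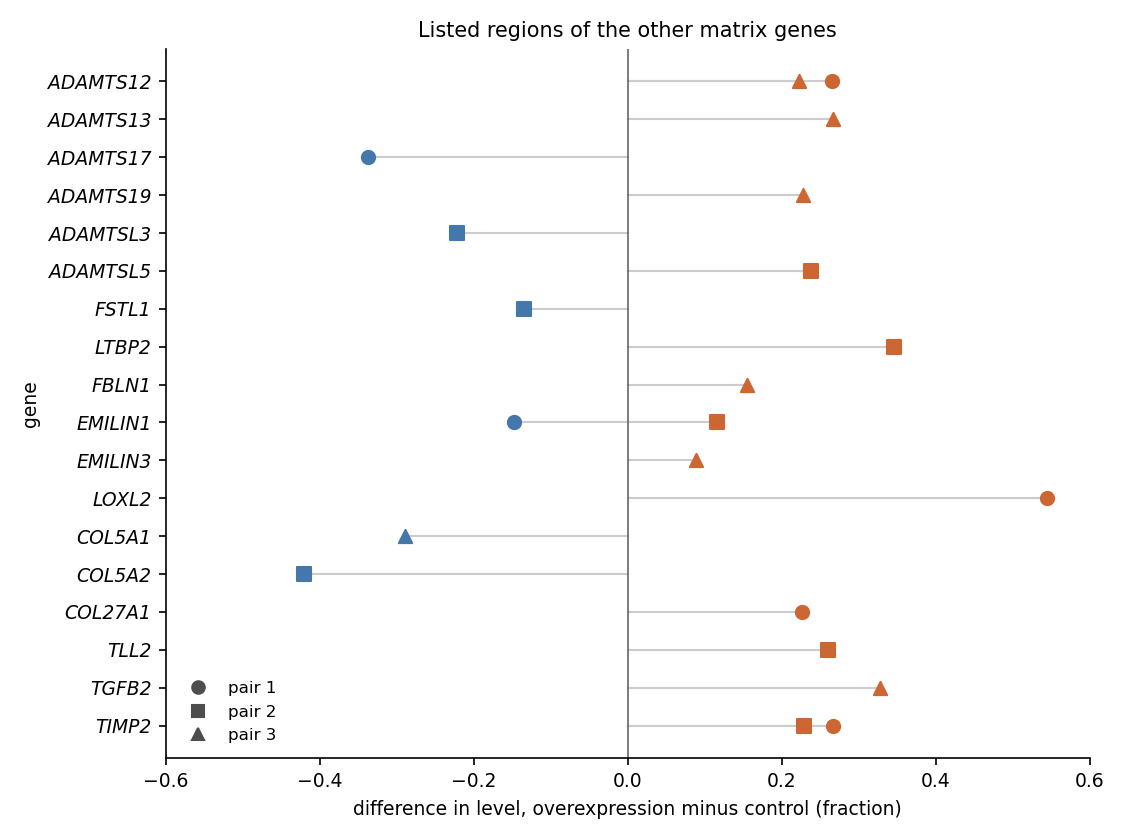
Difference in level (overexpression minus control, fraction, x axis) of every listed region within 1 kb of the other matrix genes (y axis), with shapes for the pairs. ADAMTS12 and TIMP2 have gains in 2 pairs, EMILIN1 has 1 gain and 1 loss, and the remaining genes shown have a single region.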

How the data were processed

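The RRBS data of HepG2 cells comprised a mapping summary and 3 lists of called regions. Per the labels' protocols, DNA with a lambda spike-in was cut with MspI and treated with bisulfite. Per the submitters' processing notes the build is hg38. No aligner, region caller or threshold is given in the sources used here. The authors report, per the file headers, 2 mean levels per region, as a fraction between 0 and 1, with the count of its CpG sites, and a signed difference and area score. The deposited read counts and mapping percent values are per library. A region without a call in a pair has no level there and was not imputed.

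Regions that overlapped by at least 1 bp were joined, and levels of several regions of 1 pair were averaged with weights by CpG sites. Joining was tested on simulated lists in which the regions to be joined always overlapped and shared a direction. Opposite directions were not simulated. Genes, starts and sequences came from RefSeq tables of GRCh38.p14 and were read with pandas 2.3.3. The genes named were the 5 genes, other matrix genes from 6 lists with their regions, and the 3 regions nearest in level to a region listed in all pairs. The 5 genes and the lists were chosen with earlier results of these data known. The genes of the 6 lists with a region in a single pair go beyond the rule, which asked for 2 pairs, and were named after their values were seen. No test was run, and alternatives covered gene span, site number, size of difference, overlap, weights, distance and each pair left out.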

Additional observations from a re-analysis of the deposited data

How the results depend on the processing

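The 14 listed regions of the 5 genes were 14 within the RefSeq gene extents plus 1 kb, 11 with at least 8 CpG sites and 12 with an absolute difference of at least 0.2. Leaving out 1 pair at a time left 6 to 11 of them, 6 without pair 3. The 4 regions with a single direction in 2 or more pairs were 3 when 0.5 of the shorter region had to overlap or when the difference had to reach 0.2, in both cases because FBN2 dropped out. They were 4 with regions up to 200 bp apart joined and 4 with at least 8 CpG sites. Leaving out 1 pair left 1 to 3 (2 without pair 1, 3 without pair 2 and 1 without pair 3, which was SPOCK2); with 2 pairs left, both must list a region, which lowers the count by construction. With a pair left out, the mean difference of SPOCK2 was 0.422 to 0.504. For the other genes listed in several pairs, leaving out a listing pair left the difference of a single pair, not a mean. These differences were 0.427 to 0.473 for ADAMTSL2, 0.360 to 0.442 for ADAMTSL4 and -0.236 to -0.120 for FBN2. Their direction could not turn, since each pair that lists these regions has the same sign, and weights could not matter, since each pair lists 1 region. Of the 82 other matrix genes, 3 had a region in at least 2 pairs, against 591 of 20033 protein-coding genes. The 3 matrix genes were 2 at 0 bp from the gene or with at least 8 CpG sites, 3 at 5 kb, and 0 to 2 with a pair left out. Overlapping regions in the same direction occurred in 1 gene, in 0 at 0 bp from the gene (ADAMTS12 lies 148 bp outside), and in 0 to 1 with a pair left out. No paired analysis was possible because the results come from no test; the differences themselves are given within pairs. Depth limits every level to an unknown degree, since reads per region were not analysed here.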

Other observations

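Of the 10 distinct regions nearest to the 5 genes on either side, outside the windows used, 7 were higher and 3 were lower. Over all listed regions, counted before joining, 81.6% were higher. Below ADAMTS2 the next region lay 86854 bp away at ZNF879, was lower in 2 pairs and had mean levels of 0.348 in the controls and 0.185 in the overexpressing libraries. Below FBN2 the next region lay 174344 bp away at SLC12A2, a chloride cotransporter gene, and was also lower in 2 pairs, with means of 0.490 and 0.327. The nearest region to ADAMTSL2 was a gain in ADAMTS13, the von Willebrand factor cleaving protease, 95540 bp away (0.224 to 0.491, pair 3). The next region above FBN2 was a gain in ADAMTS19, 922115 bp away (0.295 to 0.522, pair 3).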
